A study of Saccharomyces cerevisiae with 22 samples.

Results

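Possible antisense transcripts, in 801 rows named by the gene they lie opposite, were examined in total RNA of budding yeast. The total RNA files hold 18222 features, of which 1038 are named by the submitters as possible antisense transcripts to a named gene. The 801 members are those of the 1038 rows with a value above 0 in at least 1 of 10 libraries (77.2%), and the remaining 237 rows were at 0 in every library. The word possible is part of the row names, and how these rows were defined is not given in the sources used here. No coordinates of the antisense rows are in the files, so every position below is that of the sense gene, the gene that the row is named for. The rows are not all separate loci: a row named for PRY3 and one named for PRY3 and ICS3 together have nearly the same reads. A single sense gene was found in the reference annotation for 798 members, all of them protein-coding, in the total RNA files for 799 and in the polyA files for 798.

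The strains were haploid MATa cells of the genotype his3d1 lyp1d0 can1d::STE2pr-spHIS5, shared by all of them, and they differed in the number of repeats in the ribosomal DNA (rDNA) array. Total RNA libraries, made without polyA selection, came from strains with 72, 84, 118, 129, 147, 156, 197, 208, 224 and 237 repeats, with 1 library each. PolyA-selected libraries came from the same 10 strains and, with low polyA recovery per the labels, from strains with 104 and 166 repeats. Each repeat number is 1 strain of 1 of 4 strain series (CGY20, CGY24, CGY28 and CGY29), so repeat number cannot be told apart from anything else that differs between the strains, and p-values measure the spread between single strains. Genes specific to a cells were present in polyA RNA (STE2, the alpha-factor receptor, at 419 TPM, a share of all transcripts that corrects for gene length), and ASG7, the lowest of the 6 checked, averaged 32.4 TPM. Of 4 genes specific to alpha cells, the alpha-factor genes MF(ALPHA)1 and MF(ALPHA)2 averaged 0.575 and 0.715 TPM, STE3 (the a-factor receptor) 3.48 TPM and SAG1 (alpha-agglutinin) 11.3 TPM, so STE3 and SAG1 were low but not absent.

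Antisense transcription in yeast starts largely from the open chromatin at gene ends and from bidirectional promoters, or comes from a neighbouring gene whose transcript runs past its own end. Many such RNAs are short-lived: the Nrd1-Nab3-Sen1 complex recognises short words in the nascent RNA, ends transcription and hands the RNA to the nuclear exosome. At a few loci antisense transcription is known to repress the sense gene, as RME2 does at IME4 in haploid cells. The library kit keeps the strand of the RNA, per the labels, so antisense and sense reads of 1 locus were counted apart.

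Sequences are given for short frames with many antisense and few sense reads and for the promoter of a known antisense RNA, each read 5′ to 3′ on the antisense strand (build sacCer3, from the RefSeq reference). Shown are 5 short frames among the 12 members with the most reads, all with at most 2 scaled reads of sense in any total RNA library, and the promoter window of RME2. In the frames the capitals mark the Nrd1 words GTAA or GTAG and the Nab3 word TCTT, searched on the antisense strand alone. In the promoter they mark the match to the a1-alpha2 repressor motif, searched on both strands: TGT and ACATCA with 8 free bases between them.
YAL037C-A, chrI:73426-73518, plus strand: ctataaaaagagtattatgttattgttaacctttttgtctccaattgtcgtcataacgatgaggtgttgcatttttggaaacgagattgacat
YDR524W-C, chrIV:1489403-1489492, minus strand: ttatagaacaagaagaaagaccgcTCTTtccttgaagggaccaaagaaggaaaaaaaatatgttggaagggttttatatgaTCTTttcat
YDL159W-A, chrIV:172182-172313, minus strand: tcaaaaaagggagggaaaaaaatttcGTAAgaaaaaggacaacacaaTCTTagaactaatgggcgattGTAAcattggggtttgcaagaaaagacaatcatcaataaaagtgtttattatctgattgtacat
YJL077W-B, chrX:294047-294145, minus strand: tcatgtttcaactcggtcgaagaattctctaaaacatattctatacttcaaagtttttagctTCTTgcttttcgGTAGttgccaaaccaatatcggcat
AUA1, chrVI:114990-115274, minus strand: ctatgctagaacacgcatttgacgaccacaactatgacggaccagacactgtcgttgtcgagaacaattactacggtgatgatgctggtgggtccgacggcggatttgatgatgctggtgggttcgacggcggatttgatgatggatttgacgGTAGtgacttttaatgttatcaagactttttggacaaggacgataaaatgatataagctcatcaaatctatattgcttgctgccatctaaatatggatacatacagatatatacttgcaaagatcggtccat
RME2 promoter, chrVII:144071-144370, minus strand: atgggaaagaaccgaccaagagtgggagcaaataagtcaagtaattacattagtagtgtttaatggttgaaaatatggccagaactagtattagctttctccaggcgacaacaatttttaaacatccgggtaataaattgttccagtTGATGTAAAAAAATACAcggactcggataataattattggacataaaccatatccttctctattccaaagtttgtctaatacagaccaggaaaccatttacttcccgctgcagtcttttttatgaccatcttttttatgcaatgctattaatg
YAL037C-A, the frame with the most antisense reads, holds none of these words. YDR524W-C holds 2 Nab3 words, and YDL159W-A holds 2 Nrd1 words and 1 Nab3 word. Over whole sense genes read on the antisense strand, the median density was 7.33 Nrd1 words per kb for members with a mean of at least 5 reads, 7.72 for all members and 8.05 for all protein-coding nuclear genes. For the Nab3 word it was 9.17, 9.24 and 11 per kb in the same order. A match is a description of the letters and not a binding site.

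Sequencing depth set what could be seen. Outside the rDNA each total RNA library held between 377986 and 465645 reads, of between 6495626 and 7934346 in all. Antisense rows took between 2526 and 3209 reads per library, which is 0.612% to 0.713% of the reads outside the rDNA, and between 415 and 464 of them had a read. Most members were near the limit of detection: the median member had 7 reads over the 10 libraries together, and 133 members had a single read. A read was present in every library for 219 members, and 165 had reads in 1 library. A mean of at least 5 reads was reached by 124 members, of at least 10 by 55 and of at least 100 by 3. For comparison, the median of the mean reads per library was 0.7 for members and 3.4 for the 10585 features outside the rDNA with a read. A row at 0 in a library may hold up to 3 reads within counting error, and a low count does not tell fewer expressing cells from less RNA per cell.

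The 3 highest rows, opposite YAL037C-A, YDR524W-C and HUR1, took 23.6% of all 28838 antisense reads, and all 3 had no sense read in any total RNA library. Values here are scaled reads, the deposited reads divided by a size factor per library, counted per row and not per base because the length of the antisense rows is not given. Antisense to YAL037C-A, a small frame of unassigned function on chromosome I, had 196 scaled reads in the lowest strain (224 repeats), a median of 311 and 432 in the highest (156 repeats). Its sense gene was at 0 in all 10 total RNA libraries and above 0 TPM in 3 of 10 polyA libraries. The frame ends 137 bases from the end of CDC19, the pyruvate kinase gene, which runs toward it on the other strand, and CDC19 itself averaged 6251 scaled reads in total RNA and 4540 TPM in polyA RNA. Reads opposite YAL037C-A thus have the strand of CDC19, and the part of CDC19 transcripts in them was not tested.

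Antisense to YDR524W-C had 184, 219 and 339 scaled reads as the lowest, median and highest value. Its sense frame was at 0 in every total RNA library but held 51.4, 98.1 and 308 TPM as lowest, median and highest in polyA RNA. The convergent neighbour YDR524C-B ends 105 bases away and averaged 465 scaled reads and 20656 TPM. A sense value of 0 in total RNA is therefore not in every case a sign of a silent gene. Of the 69 members with sense at 0 in every total RNA library, 5 had at least 10 TPM of sense in polyA RNA. Members with few sense reads are not in this count, such as HUB1 with a mean of 3.22 scaled reads and 132 TPM. HYP2, which encodes the translation factor eIF5A, was listed at 0 in 9 of 10 total RNA libraries with 3391 TPM or more in each polyA library of normal recovery. How reads of overlapping or near-identical features were assigned is not given in the sources used here.

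Antisense to HUR1 ranged over 80.8, 116 and 149 scaled reads (lowest, median and highest). HUR1 lies opposite PMR1, the gene of a Golgi calcium and manganese pump, which covers 54.4% of it, and the PMR1 row itself averaged 31.4 scaled reads. Below these rows the order was no longer clear: the values of YDR524W-C lay above all those of HUR1, and those of HUR1 above all those of HPF1, but from HPF1 to MTQ2 each row overlapped the next over the strains. YAL037C-A overlapped YDR524W-C as well and was the higher of the pair in 7 of 10 strains.

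**Figure D1:**
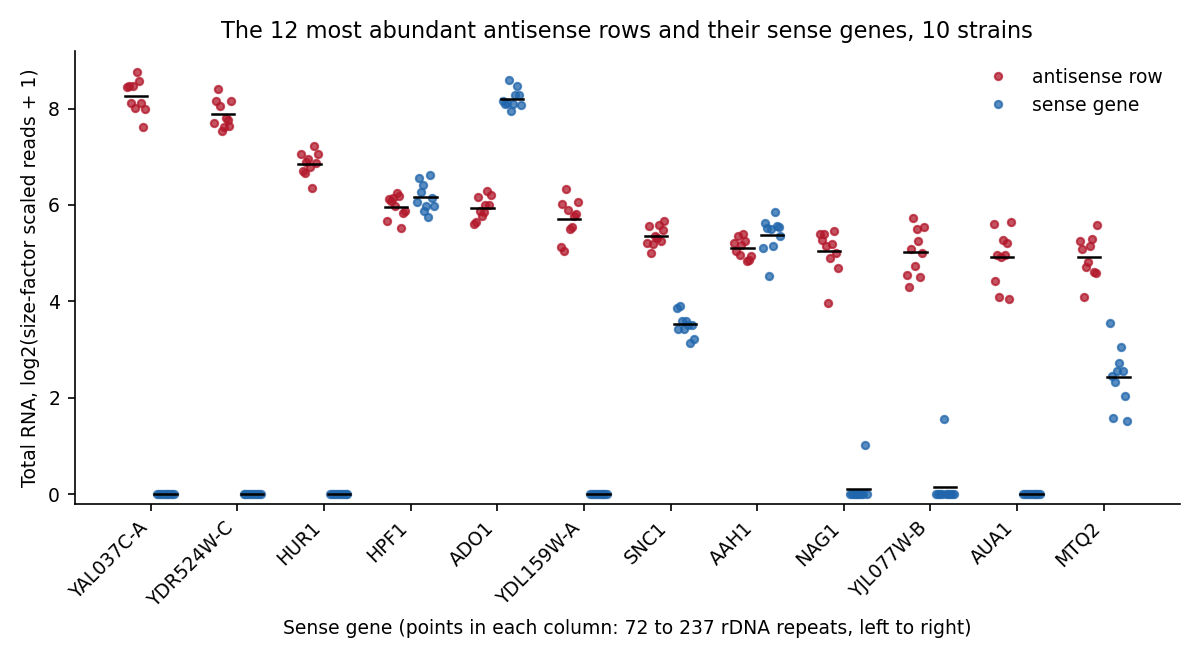
Scaled reads in total RNA of the 12 highest antisense rows (red) and their sense genes (blue), on a log2(value + 1) axis. Each point is 1 strain, ordered from 72 to 237 repeats within a column, and black bars are means. Sense is at 0 in all strains for YAL037C-A, YDR524W-C, HUR1, YDL159W-A and AUA1, and above the antisense row in all 10 strains for ADO1.

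The next highest rows fell opposite genes of several kinds. HPF1, a cell wall mannoprotein gene, had 62.1 ± 9.83 scaled reads of antisense and 72.0 ± 15.0 of sense (SD, n = 10 strains). ADO1, the adenosine kinase gene, had 61.2 ± 10.1 of antisense and 297 ± 41.9 of sense. AAH1, the adenine deaminase gene of the same purine salvage route, had 33.7 ± 4.90 of antisense and 41.6 ± 9.65 of sense. Antisense and sense overlapped over the strains for HPF1 and AAH1 and were apart for ADO1, with sense higher.

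SNC1, which encodes a vesicle SNARE of exocytosis, showed the opposite order, with 40.5 ± 6.01 scaled reads of antisense and 10.6 ± 1.96 of sense. Its lowest antisense value, 31.0, stood above its highest sense value, 14.0. MTQ2, the gene of a methyltransferase that modifies release factor eRF1, had 16.0 to 47.2 scaled reads of antisense and 1.85 to 10.8 of sense, again without overlap. In polyA RNA sense averaged 113 TPM for SNC1 and 39.2 TPM for MTQ2, above the median of 21.7 TPM over all protein-coding genes. Few sense reads in total RNA were thus not a sign of little mRNA at these loci. Both genes run toward a close neighbour, MYO4 (a myosin motor) 102 bases after SNC1 and DOP1 97 bases after MTQ2.

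The other rows among the 12 highest had nearly no sense reads. YDL159W-A, a small frame between DHH1 (an mRNA decapping activator) and STE7 (a kinase of the pheromone pathway), had 32.0, 54.6 and 79.6 scaled reads of antisense as lowest, median and highest, with sense at 0 in every library of both assays. NAG1, a gene nested inside IMO32 on the other strand, had 14.7, 34.8 and 43.1 of antisense, and its sense had a read in 1 strain. AUA1, which overlaps WWM1 over 58.6% of its length, had 15.6, 30.0 and 49.0 of antisense. YJL077W-B had 18.8, 32.1 and 52.4 of antisense and a sense read in 1 strain, but 33.4 to 60.8 TPM of sense in polyA RNA.

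Convergent and overlapping neighbours were common where antisense reads were many. Among the 123 members with a mean of at least 5 reads and an annotated sense gene, 16 (13%) overlapped a gene on the opposite strand. The share was 4.39% of all 798 annotated members, 0.844% of the 237 rows at 0 and 1.97% of 6002 protein-coding nuclear genes. A convergent gene ending within 300 bases followed 69 of the 123 (56.1%), against 271 of all 798 members (34.0%), 61 of the rows at 0 (25.7%) and 35.1% of all genes. Members as a whole thus had close convergent neighbours about as often as genes in general, and the higher share was seen among those with more reads. Besides HUR1, NAG1 and AUA1, the overlapping members include YCR050C, of which 96.4% lies opposite ARE1, an acyltransferase gene of sterol ester synthesis, and VAM10, which lies wholly opposite VPS5, a retromer gene. The part of the overlapping gene's own mRNA in these antisense reads was not tested.

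The share of rows with a mean of at least 5 reads was lower at larger gaps to a convergent gene. It was 29.2% at up to 100 bases, 20.8% over 100 and up to 200, 12.8% over 200 and up to 300, 8.99% over 300 and up to 500 and 9.76% beyond. Where the next gene lay on the same strand it was 4.85%, and where an opposite gene overlapped it was 43.2%. The median of the mean reads was 2.9, 1.55 and 0.9 for members in the 3 nearest classes. Across the 252 members with a convergent neighbour within 300 bases that has a polyA value, antisense reads and the neighbour's TPM had a Spearman rho of -0.0613, and antisense reads and gap had -0.18. These are descriptions across loci of the same libraries.

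**Figure D2:**
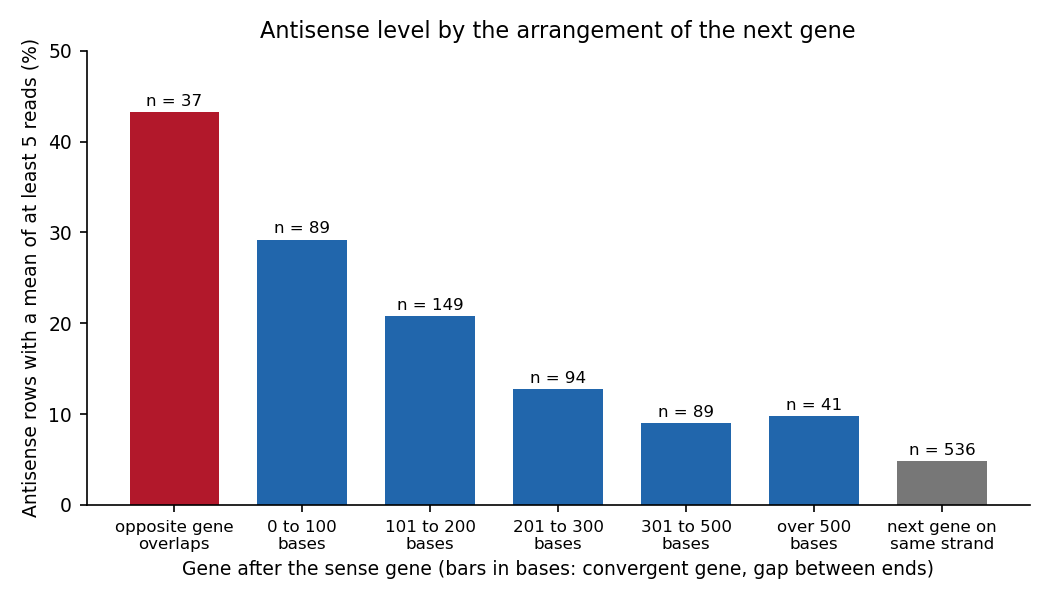
Percent of all antisense-named rows with a mean of at least 5 reads (vertical axis) by the arrangement of the gene after the sense gene. Red is an overlapping opposite gene, blue a convergent gene by the gap between the gene ends, grey a next gene on the same strand, and n counts the rows. The percent is 43.2 for overlap, 29.2 at up to 100 bases and 4.85 on the same strand.

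Genes with many antisense reads more often had little mRNA than genes in general. In polyA RNA the sense genes had a median of 14.9 TPM for members with a mean of at least 5 reads, 17.9 for all members, 36.6 for the rows at 0 and 21.7 for all 5811 protein-coding genes. Under 1 TPM were 24 of 123 of the first set (19.5%), 99 of the members (12.4%), 7 of the rows at 0 (2.95%) and 4.84% of all protein-coding genes. The share of rows with any read was 93.4% for sense genes under 1 TPM, 75.4% for those between 10 and 30 TPM and 60.8% for those of at least 1000 TPM. Across all members, antisense reads and sense TPM had a Spearman rho of -0.20.

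**Figure D3:**
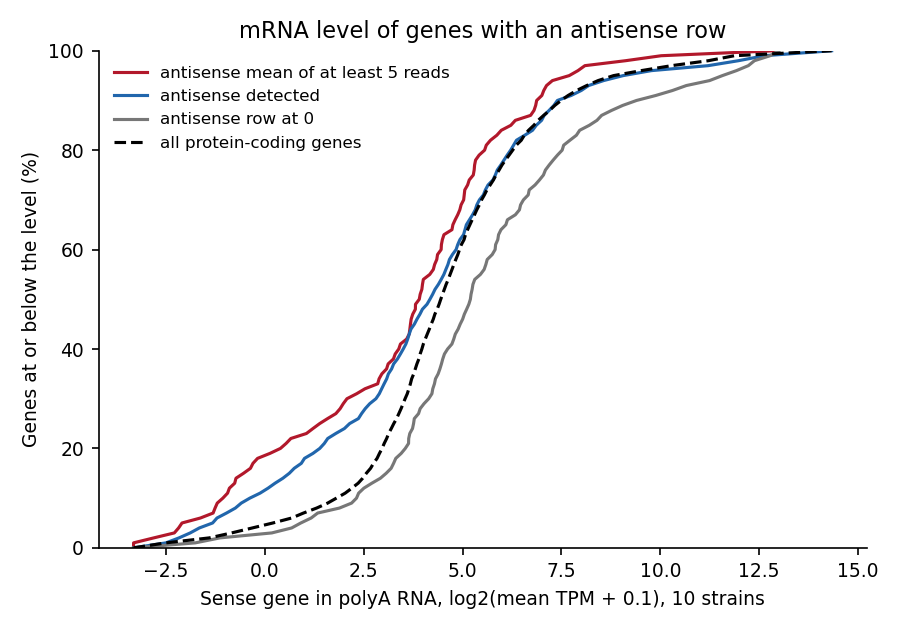
Cumulative percent of genes (vertical axis) by their mean level in polyA RNA over 10 strains, as log2(TPM + 0.1). The red line is sense genes of antisense rows with a mean of at least 5 reads, blue those of all members, grey those of rows at 0 and dashed black all protein-coding genes. The red and blue lines lie above the others at low levels, with 19.5% and 12.4% of genes under 1 TPM.

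By the mean over strains, antisense exceeded sense in total RNA at 233 of 799 members (29.2%), and at 94 of the 123 with a mean of at least 5 reads. In 82 members, 60 of them with a mean of at least 5 reads, antisense exceeded sense in each of the 10 strains. The members with a mean of at least 5 reads were chosen by their antisense level, so their higher shares follow in part from that choice. The share with more antisense than sense was 89.9% among sense genes under 1 TPM, 40.2% between 1 and 10 TPM and 9.41% between 30 and 100 TPM, and 0 of 31 among those of at least 1000 TPM. The highest ratios of mean antisense to mean sense among tested rows with any sense read were those of NAG1 (319), YCR050C (291), YJL077W-B (170) and YMR279C (100). In each of these the sense mean rested on fewer than 4 libraries with a read, so the ratio is known only roughly.

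A strand check came from the most abundant mRNAs. The 22 antisense rows whose sense gene averaged at least 500 reads held together 0.0521% of the sense level. Of these, 14 are members, with a median of 0.0301% and a range of 0.00922% to 0.347%. FBA1, the aldolase gene, had 6.96 scaled reads of antisense and 4385 of sense, and CCW12, a cell wall protein gene, had 2.27 and 3561. At SNC1 sense averaged 10.6 scaled reads in total RNA and antisense 40.5, and at HPF1 they averaged 72.0 and 62.1. The part of reads assigned to the wrong strand at these loci was not tested.

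**Figure D4:**
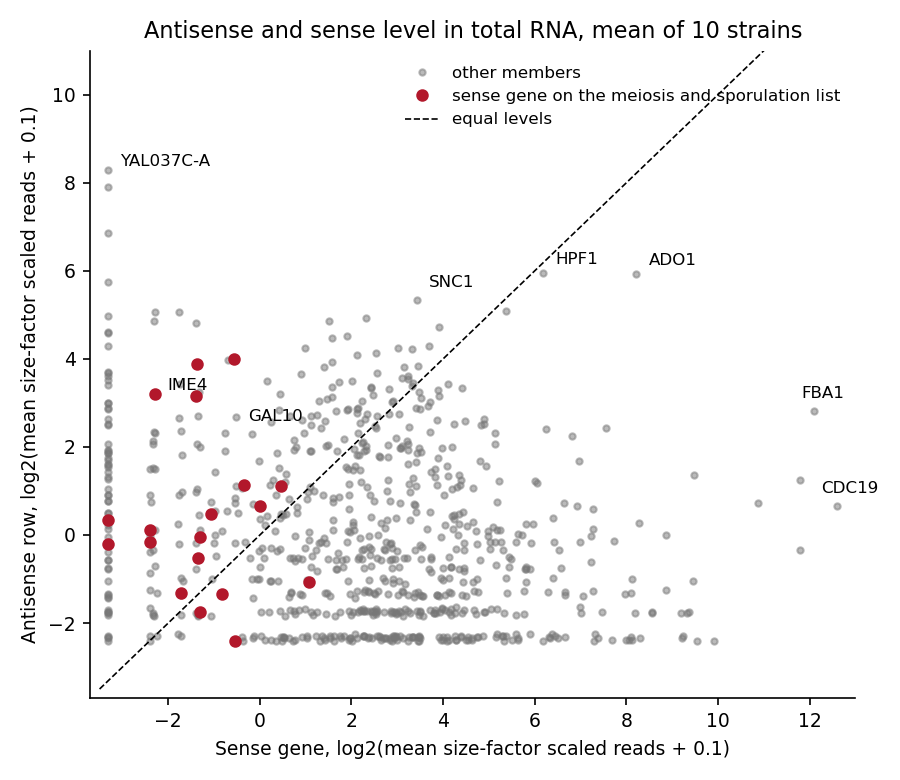
Mean level in total RNA over 10 strains of each antisense row (vertical axis) and its sense gene (horizontal axis), as log2(scaled reads + 0.1). Each point is 1 of 799 members, red points are the 19 whose sense gene is on the meiosis and sporulation list, and the dashed line marks equal levels. Of the red points 15 lie above the line, as do 89.9% of all members with sense under 1 TPM in polyA RNA. Abundant mRNAs such as FBA1 and CDC19 lie far below it.

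Loci with known antisense RNAs came next. Of 9 such genes, 5 had a row and 4 were detected. IME4, the mRNA methyltransferase gene needed for meiosis, had 5, 8.83 and 15.3 scaled reads of antisense as lowest (118 repeats), median and highest (72 repeats), and a sense read in 1 strain. Its sense was at 0.108 ± 0.0706 TPM in polyA RNA (SD, n = 10). The reads of this row are the same in every library as those of the row named RME2, so both names stand for 1 set of reads. The RME2 window printed above holds the a1-alpha2 motif once, at chrVII:144207-144223, from 87 to 103 bases before the annotated start, and 25 of 6430 promoter windows of the same length hold it (0.389%). In MATa haploids alpha2 is missing, so the a1-alpha2 repressor is known not to form.

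GAL10, the epimerase gene of galactose use, had 3.13, 6.93 and 9.25 scaled reads of antisense, above its sense (0 to 1.11) in every strain. An antisense RNA is annotated across 73.7% of this gene. PHO5, an acid phosphatase gene with a known antisense RNA, had 3.63 ± 1.93 of antisense and 3.11 ± 2.05 of sense, which overlapped. HMS2 had at most 1 read of antisense in any strain and 55.9 ± 10.5 scaled reads of sense. The row opposite SUR7 was at 0.

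Genes of meiosis and sporulation, largely silent outside sporulation, held more antisense than sense reads in sum, as did most members with sense under 1 TPM. Of the 73 genes on this list 19 had an antisense row. All 19 had a read. By the mean over strains antisense exceeded sense in 15 of them, beside 29.2% of all members but 89.9% of members with sense under 1 TPM, the level of most of this list. It did so in all 10 strains for SPS19, SPO75, IME4 and SMK1 alone, and in 1 strain each for SPO13, CRR1 and YOL047C. Summed over the 19, antisense lay between 47.0 and 75.3 scaled reads per strain and sense between 1.11 and 16.1, without overlap. The median sense level was 0.872 TPM, beside 17.9 TPM for all members. SPS19, a dienoyl-CoA reductase gene induced in sporulation, had 7.84, 16.7 and 21.5 of antisense as lowest, median and highest, with no more than 1 read of sense in a strain. SPO75 had 6, 14.0 and 21.5 of antisense, and SMK1, a kinase gene of spore wall assembly, averaged 8.76 of antisense and 0.283 of sense. NDT80, the master regulator of middle meiosis, averaged 1.28 of antisense and 0.378 of sense. With 4 of the 19 at a mean of at least 5 reads, the sums rest mainly on SPS19, SPO75, IME4 and SMK1.

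Summed levels on the glycolysis and gluconeogenesis list were dominated by abundant sense mRNAs such as CDC19 and FBA1. Its 9 detected members summed to 15.5 to 34.4 scaled reads of antisense per strain, against 15210 to 18527 of sense. By count, mean antisense exceeded mean sense in 3 of the 9. ICL1, the glyoxylate cycle gene isocitrate lyase, was one, with 9 ± 3.01 of antisense and 5.44 ± 3.72 of sense, and antisense was higher in 6 strains. Among cytosolic ribosome and translation genes 4 of 10 rows had a read. The share was 77.2% over all rows and 60.8% where sense was at least 1000 TPM. In none did mean antisense exceed mean sense, as in 0 of 31 members at that sense level. For HYP2 this rests on the 1 total RNA library with a sense value, 16.1 scaled reads at 84 repeats, and antisense was higher in 2 strains. RPL25 had antisense reads in 1 strain. Of 13 cell wall and adhesion rows 10 were detected, and antisense exceeded sense in none. That share was 29.2% of all members and 6.73% of those with sense between 100 and 1000 TPM. The median sense level of the detected genes was 4071 TPM on the ribosome and translation list and 287 TPM on the cell wall list.

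The remaining lists were mixed. By the mean over strains, antisense exceeded sense in 3 of 8 detected mating genes, 4 of 8 sugar use genes and 2 of 8 iron and copper genes. It did so in 1 of 5 phosphate genes, 1 of 5 amino acid synthesis genes and 1 of 3 general stress genes. Strain by strain, antisense was higher in all 10 strains for GAL10, HXT8, FRE5 and GDH3. It was higher in 8 strains for PRM4, 7 for GLC3, 5 for PHO5 and 4 for STE18. Over all members the share was 29.2%, but 89.9% where sense was under 1 TPM and 20% between 10 and 30 TPM. The median sense level was 0.922 TPM for the detected sugar use genes and 11.8 TPM for the iron and copper genes. STE18, the gamma subunit of the pheromone G protein, had 6.61 ± 4.87 of antisense and 4.97 ± 1.88 of sense, and PRM4, a pheromone-regulated gene, had 5.92 ± 3.07 and 2.58 ± 1.87. FRE5, a ferric reductase-like gene, had 12.5, 17.1 and 33.3 of antisense with sense at 0 in all total RNA libraries. GDH3, a glutamate dehydrogenase gene, had 9.10 ± 2.95 of antisense and 1.26 ± 1.69 of sense, and HXT8, a sugar transporter gene, 2.79 ± 0.967 and 0.0978 ± 0.309. GLC3 (glycogen branching) had 3.63 ± 1.99 and 2.07 ± 2, whereas PHO4, the phosphate regulator, had 1.34 ± 1.85 and 21.4 ± 4.85. TRP1 (tryptophan synthesis) had 1.60 ± 0.918 and 7.02 ± 2.41, FET4 (iron uptake) 2.28 ± 0.855 and 6.90 ± 3.09, and HSP30 0.594 ± 0.513 and 0.765 ± 1.12. Both cell cycle members, SWE1 and PCL2, averaged under 1 scaled read of antisense. HTZ1, the gene of histone variant H2A.Z, was the 1 of 3 detected chromatin and rDNA silencing genes with more antisense than sense, and HST2, a Sir2-like deacetylase gene, had antisense reads in 2 strains. No row of the RNA decay and termination list was present.

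Antisense levels showed no change with rDNA repeat number that passed the test. The trend was fitted with limma on log2(value + 1) over 4019 features outside the rDNA, and 1 of these was called at an adjusted p below 0.05 (0.0249%). Of the 76 antisense rows tested, 0 were called, with a lowest Benjamini-Hochberg adjusted p of 0.987. Without adjustment, p was under 0.05 for 2 rows with a positive slope and 1 with a negative slope, beside 2.16% and 2.51% of all features. The edgeR quasi-likelihood test and the DESeq2 Wald test on recovered reads each called 0, with 2 rows under the unadjusted threshold. The median slope was -0.0245 per 100 repeats for the 76 rows and -0.00090 for all tested features, and 35 of the 76 were positive. The median standard error was 0.267 per 100 repeats. To pass the adjusted threshold, the slope of a single row must be several times its standard error, so changes well above 0.267 could be missed. A slope of 0.74 for YHR112C, for example, was not called.

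The lowest p values were those of ADO1, YHR112C and YCR050C. Antisense to ADO1 was lowest in the strain with 72 repeats (47.7 scaled reads) and highest in that with 208 (77.5), with a slope of 0.30 ± 0.12 per 100 repeats (SE; 95% interval 0.05 to 0.55; limma adjusted p = 0.987). YHR112C, which encodes a protein similar to cystathionine enzymes, had 2.68, 8.03 and 13.6 scaled reads of antisense as lowest, median and highest and a slope of 0.74 ± 0.31 (interval 0.11 to 1.37). YCR050C had 14.6, 29.6 and 44.6 and a slope of -0.56 ± 0.24 (interval -1.05 to -0.07). None was past the adjusted threshold, and no row was ordered by repeat number throughout, as the plots against repeat number show. Other positive slopes with low p were those of RAD33 (0.36), HTZ1 (0.35), RRN5 (0.33), a polymerase I initiation factor gene, and YJL077W-B (0.32). Negative ones were those of LYS5 (-0.62), HUB1 (-0.38), YLR264C-A (-0.38), ITC1 (-0.34) and YAL037C-A (-0.29).

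In polyA RNA the sense genes of the antisense rows showed no called trend either. Of 699 tested, 0 passed limma's adjusted threshold, and the same was true of all 5542 genes (0%). At an unadjusted p under 0.05, 18 sense genes had a positive slope and 27 a negative one, where the shares over all genes were 1.95% and 3.68%. Their median slope was -0.0206 per 100 repeats, beside -0.0233 for all genes. FIT2, a cell wall mannoprotein gene for siderophore iron, had the lowest p, with a slope of 0.41 ± 0.08 (limma adjusted p = 0.326).

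The ratio of antisense to sense could be followed at 23 loci where both rows passed the expression filter. By limma on the log2 ratio, 0 of 23 were called (0%), with 1 at an unadjusted p under 0.05 and a lowest adjusted p of 0.559. That one was SNC1, with a slope of 0.45 ± 0.19 per 100 repeats (SE; interval 0.06 to 0.84), from 31 to 50 scaled reads of antisense and 7.84 to 14.0 of sense. RFA3, a subunit gene of replication protein A, had a slope of 1.10 ± 0.53. With the strain series as a covariate both SNC1 (0.78, adjusted p = 0.0378) and RFA3 (2.23, adjusted p = 0.0459) were called, and without the strain with 84 repeats SNC1 was called alone (0.66, adjusted p = 0.00435). Series CGY29 holds only the strain with 84 repeats, so the covariate takes up that strain and these 2 fits are not independent. The other slopes of the ratio with low p in the main fit were positive for RRN5 (0.47), YHR112C (0.37), PTC7 (0.29) and ADO1 (0.24). They were negative for THO1 (-0.40), LTP1 (-0.40), HUA1 (-0.37), AAH1 (-0.37), VAC17 (-0.36) and PET10 (-0.30).

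Antisense and sense levels did not follow each other over the strains as a group. Over the same 23 loci, 13 Pearson correlations of log2(value + 1) were positive, with a median r of 0.0249, and the 506 pairings of an antisense row with the sense gene of another locus had a median of 0.0218. No pair was called after Benjamini-Hochberg adjustment over the 23 (0%), by Pearson or by Spearman, and 1 had an unadjusted Pearson permutation p under 0.05. That was YHR112C (r = 0.80, permutation p = 0.00366, adjusted 0.0842; rho = 0.73, permutation p = 0.0199, adjusted 0.229), and r was 0.61 without the 2 strains farthest from the median. UIP5 had r = 0.58 (permutation p = 0.0796, adjusted 0.458) and rho = 0.85 (permutation p = 0.00294, adjusted 0.0676), and r was 0.69 without 2 strains. SNC1 was the most negative, with r = -0.62 (permutation p = 0.0544, adjusted 0.442) and rho = -0.61 (permutation p = 0.0665, adjusted 0.510), and -0.79 without 2 strains. Without the strain with 208 repeats SNC1 was called (r = -0.87, exact permutation p = 0.00168, adjusted 0.0387).

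For 2 other loci the correlation rested on the 2 strains farthest from the median. YIL002W-A had r = 0.61 (permutation p = 0.0577, adjusted 0.442) and rho = 0.45 (permutation p = 0.192), which became -0.0961 without these strains, and DDP1, a polyphosphate phosphatase gene, had r = 0.48 (permutation p = 0.163) and 0.0267 without them. LTP1 had r = 0.50 (0.44 without 2 strains) and ADO1 r = 0.28. On the negative side RFA3 had r = -0.51 (-0.63 without 2 strains), REH1 -0.29, HPF1 -0.27, RRN5 -0.25 and ITC1 -0.23. For these 7 loci the adjusted permutation p was 0.532 or more by Pearson and 0.659 or more by Spearman. After centring within strain series 2 pairs were called, AAH1 and HTZ1, chosen for naming after their values were seen. The permutations took no account of the centring, which sets the only CGY29 strain to 0, so these 2 calls are not reliable. Before centring, r was 0.06 for AAH1 and -0.14 for HTZ1. Paired with polyA TPM of the same strain, LTP1 was called (r = 0.80, permutation p = 0.00146, adjusted 0.0336), while YHR112C had r = -0.23.

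**Figure D5:**
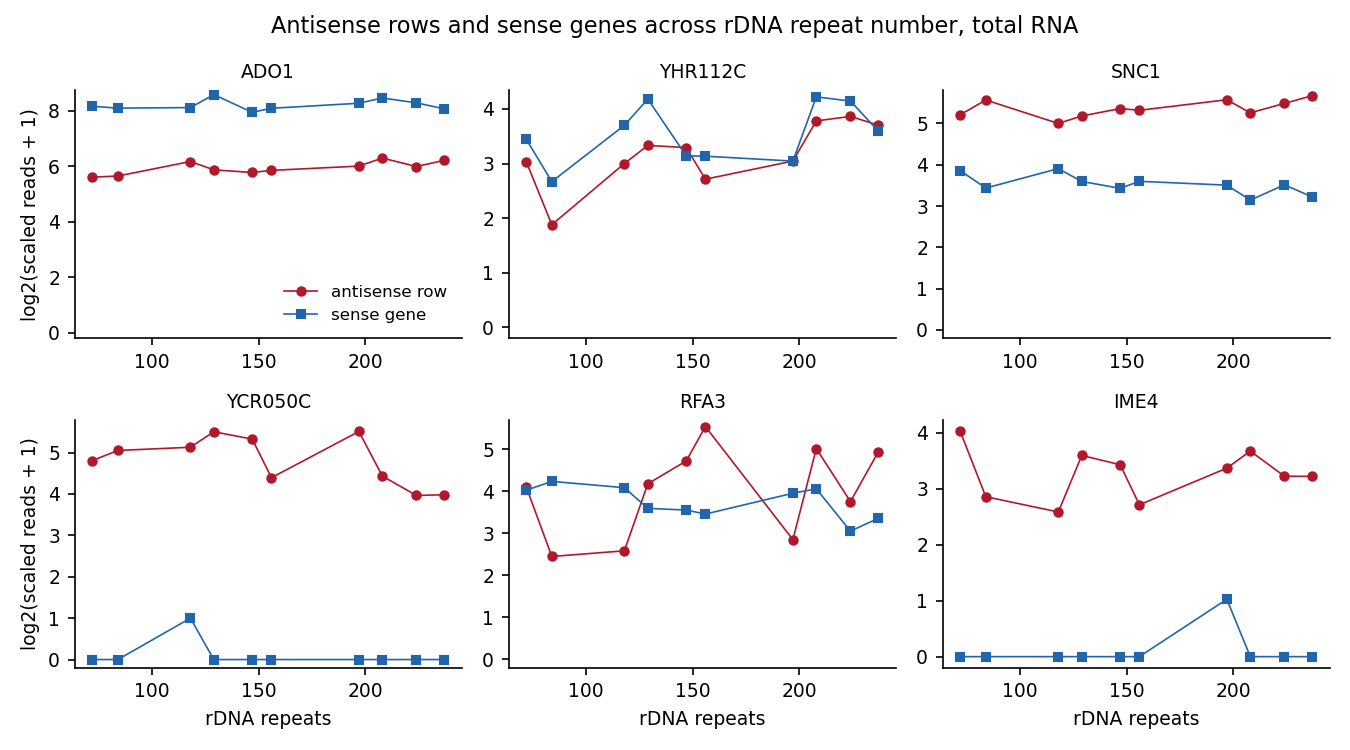
Scaled reads in total RNA, as log2(value + 1), of 6 antisense rows (red circles) and their sense genes (blue squares) against rDNA repeat number, with 1 library per strain and lines that join the strains in order. SNC1, YCR050C and IME4 have more antisense than sense in every strain, and ADO1 has more sense than antisense in every strain. None of the antisense slopes passed the adjusted threshold.

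Spread between strains, each with 1 library, was set against counting error. A dispersion index, the variance of reads over that of Poisson counts at the same depth, had a median of 1.60 over the 76 tested rows, and 28 were above 2 (36.8%). Over all 4019 tested features the median was 1.37 and 27.1% were above 2. The index grows with the number of reads. The highest were those of YAL037C-A (15.9), YDR524W-C (10.9), RFA3 (9.31), YCL056C (5.14), AUA1 (4.60) and YCR050C (4.48). Relative to the mean, the SD was 22.9% for YAL037C-A and 21.3% for YDR524W-C, against 51.3% for YCL056C and 69.7% for RFA3. RFA3 spanned 4.47 scaled reads of antisense in the strain with 84 repeats to 45.6 in that with 156, while its sense stayed between 7.30 and 17.9. YCL056C (PEX34, a peroxisome gene), which ends 18 bases from the convergent gene PRD1, had 42.0 in the strain with 84 repeats and 8.90 to 25.4 in the others. The strain with 156 repeats was the highest for YAL037C-A and RFA3 and the lowest for YCL056C.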

How the data were processed

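RNA of yeast strains was measured without polyA selection (10 libraries) and after it (12 libraries). The submitters' processing notes name Salmon 0.8.1, DESeq2, bcl2fastq and the sacCer3 build. How antisense rows were counted is not given in the sources. Total RNA values as deposited are a size-factor scaled signal per feature, and the deposited polyA values are TPM, which keeps no depth. All of the total RNA values (100%) were whole multiples, within 0.001, of the library's smallest value, so reads were recovered by division. The 42 rDNA features were left out of tests and shares.

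Sense genes were matched by symbol (749 rows), locus tag (275), synonym (11) or row name (1), and 2 rows could not be matched. Trends used limma 3.58.1 in R 4.3.3 on log2(value + 1), with a slope per 100 repeats and Benjamini-Hochberg adjustment at 0.05, over all features passing edgeR 4.0.16's expression filter on recovered reads, or with a mean of at least 1 TPM. The 2 polyA libraries of low recovery entered no main fit. Correlations used two-sided permutation tests with 100000 resamples (scipy 1.17.1). Alternatives were edgeR, DESeq2 1.42.0, other pseudocounts and filters, the strain series as a covariate, rescaling and leaving out each strain. Scripts were tested on simulated data.

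The members and gene lists were chosen with earlier results of these data known. Named rows are the 12 with most reads, the 6 with the lowest p per direction in each trend (or those past the threshold, up to 12), the 6 highest and 6 lowest r, the 8 highest ratios, the 6 highest dispersion indices, the loci with known antisense RNA and the 2 highest of each other list.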

Additional observations from a re-analysis of the deposited data

Results flagged for a closer look

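In 6 of the 61 named antisense rows, 1 strain stood apart from the other 9 by Dixon's criterion for 10 values. The criterion assumes normally distributed values, for which it flags about 1 of 20 groups. Low counts and rows named for their spread do not meet this, so 6 of 61 cannot be set against that rate. The strain with 197 repeats had 22.8 scaled reads opposite UIP5, the strain with 84 repeats 42.0 opposite YCL056C and the strain with 208 repeats 12.7 opposite PRM4. The strain with 224 repeats had 8.34 opposite GLC3, which lay above the others as well. At the lowest counts, the strain with 84 repeats had 1.79 scaled reads opposite PCL2 and the strain with 208 repeats 1.96 opposite RPL25, 2 reads each. RPL25 had no antisense read in any other strain, so its flag was fixed in advance. All 6 were high values, and they fell in 4 different strains.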

How the results depend on the processing

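The count of antisense rows called in the trend with repeat number stayed at 0 under all alternatives run: other pseudocounts and filters, the strain series, log2 of the repeat number, rescaling, edgeR, DESeq2 and each strain left out. For sense genes in polyA RNA it also stayed at 0, with the 2 libraries of low recovery included too. For the antisense to sense ratio it was 2 with the strain series as a covariate and ranged from 0 to 1 when each strain was left out. For the correlation of antisense and sense it was 2 after centring within strain series, of which the permutations took no account. With sense taken from polyA TPM it was 1. When each strain was left out it was 0 to 1, the 1 being SNC1 without 208 repeats (r = -0.87). Of the 584 values of single loci under an alternative, 571 kept their direction and side of the threshold, 5 newly passed it and 8 changed sign, and the cause was not tested. With the strain series as a covariate, the slope for HUB1 was 0.13 and the ratio slope for VAC17 was 0.89. With polyA TPM as sense, r was -0.23 for YHR112C, -0.23 for UIP5 and 0.13 for HPF1. After centring within series r was 0.0226 for RRN5. With each strain left out, r ranged from -0.0557 (without 224 repeats) to 0.67 for DDP1 and from -0.45 to 0.13 (without 208 repeats) for HPF1. The 801 members became 219 when a read was asked for in every library and 55 at a mean of at least 10 reads, so most members rest on very few reads. The same 10 strains are in both assays, and that pairing is used in the correlation with polyA TPM. No paired analysis was possible because the trends compare no groups: each strain has 1 library per assay.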
